A study of Mus musculus with 11 samples.

Results

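The 10 genes described here encode the Reelin pathway and the machinery that moves the nucleus of a migrating neuron: Reln, Vldlr, Lrp8, Dab1, Cdk5, Cdk5r1, Pafah1b1, Ndel1, Nde1 and Dcx. They were chosen by name, and all 10 were found among the 21881 promoter windows of the deposited table. The values are reads from chromatin immunoprecipitation (ChIP) of HA-tagged ST18, a DNA-binding zinc finger protein related to MYT1, and reads from input DNA, both from cultured mouse cells that the labels call TN and class as brain cells. The labels name 2 ST18 ChIP libraries and 1 input library, while the table has 1 ST18 column, whose libraries are not named, and 1 input column. No value therefore has a replicate, and the intervals given cover counting error only. The labels also give the input sample the molecule entry HA ChIP, so its role as input rests on its title, its description and the column name. The ChIP and input labels carry the protocol text of the RNA samples, on electroporated mouse embryos, but class these samples as in vitro, and they name no strain and no source of the tagged protein. Reads of DNA do not show which cell type was present. The RNA libraries of the series, 4 with ST18 knockdown and 4 with a non-targeting control, were not analysed here.

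Reelin is a large secreted protein that guides the layering of neurons in the developing cortex. It binds the lipoprotein receptors encoded by Vldlr and Lrp8, and binding leads to phosphorylation of the adaptor Dab1 inside the neuron. The kinase Cdk5, with its activator p35, acts beside this pathway. Moving the nucleus then depends on the motor dynein, which the Pafah1b1 product LIS1 and its partners Nde1 and Ndel1 bind, and on microtubules that Dcx stabilises.

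Across these promoters, ST18 reads stood close to the share found at promoters in general. The 10 windows together held 224 ST18 reads and 68 input reads, which gives a relative enrichment of 1.20-fold (exact 95% interval 0.914 to 1.60). That interval pools reads over genes and leaves out the spread between them. Relative enrichment is the number of ST18 reads per input read divided by the same quantity summed over the whole table, 2.74. The deposited log2 ST18 over input, which carries a pseudocount of 16, had a median of 0.13 over the 10 windows and of 0.04 over all windows (interquartile range −0.10 to 0.19). It was above the median of all windows in 7 of the 10, where 49.6% of all windows were, and ran from −0.29 at Cdk5 to 0.53 at Lrp8. Of the 7, Ndel1 and Dcx were above that median by only 0.013 and 0.007. None of the 10 reached 0.58 in either direction. Of all windows, 1.15% were at least that high and 0.219% at least that low. The value 0.58 is 1.5-fold only for the quotient with the pseudocount in it, which draws log2 values toward 0. Without a pseudocount, relative enrichment was above 1.5-fold at Lrp8 and Nde1 (2.92-fold each), Pafah1b1 (1.83-fold) and Reln (1.54-fold). It was lowest at Cdk5 (0.548-fold).

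An exact two-sided binomial test compared the ST18 share of reads in each window with the share over the table, and p-values were adjusted by the Benjamini-Hochberg method over the 21358 windows with reads. The test sets the reads of 1 column against those of the other and says nothing of variation between libraries. It called 0 of the 10 promoters, against 0.0375% of all windows called higher and 0.00936% called lower. At an unadjusted p under 0.05, 1 of the 10, Lrp8, was higher and 0 were lower, against 2.43% of all windows higher and 3.32% lower. All windows were 1000 bp wide, so read numbers need no adjustment for width. Depth still differed between windows, with a median of 12 reads in all on chromosome X against 28 on the autosomes. Over the whole table the ST18 column held 438960 reads, with a median of 20 per window, and the input column held 160443, with a median of 7.

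**Figure D1:**
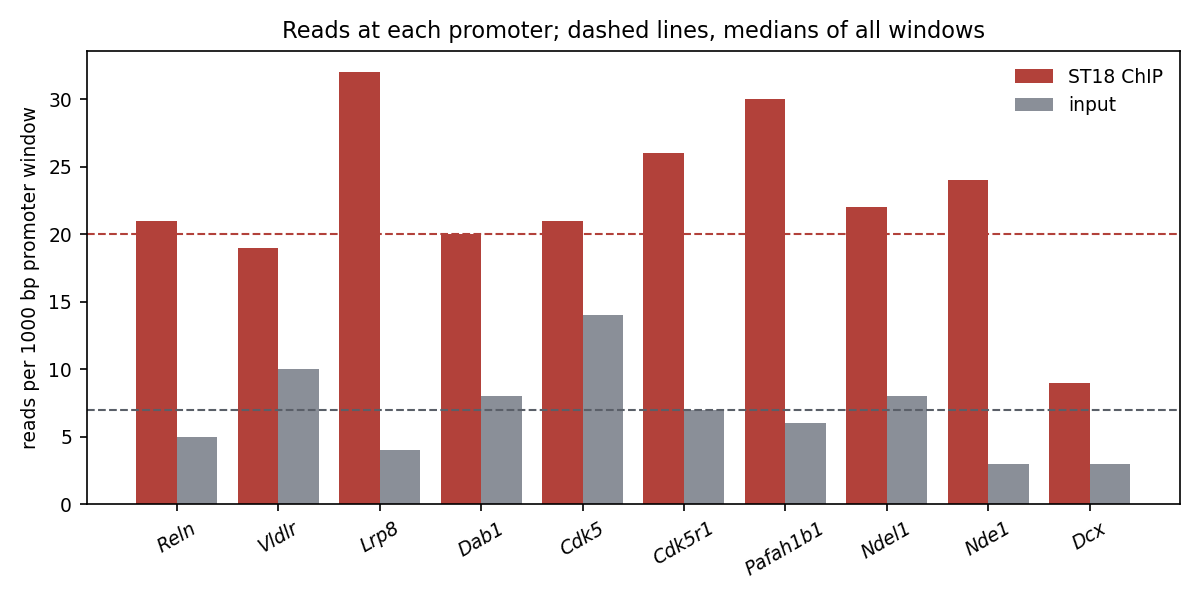
Reads in the 1000 bp promoter window of each gene, in the ST18 ChIP column (red bars) and the input column (grey bars). Dashed lines mark the medians of all windows, 20 ST18 reads and 7 input reads. Lrp8 and Pafah1b1 had the most ST18 reads, 32 and 30, Cdk5 had the most input reads, 14, and Dcx had the fewest in all, 12.

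The ligand gene came close to the middle of the table in ST18 reads. The Reln window held 21 ST18 and 5 input reads, for a log2 value of 0.22 and a relative enrichment of 1.54-fold (interval 0.563 to 5.21). ST18 reads were thus 1 above the table median and input reads below it. Of all windows, 21.1% had a higher log2 value. The windows of the adjoining genes with a value, Slc26a5 and Orc5, stood at log2 −0.08 (12 against 6 reads) and 0.18 (22 against 6 reads).

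The 2 Reelin receptor genes stood apart from each other more than any other pair of related members. Lrp8, which encodes the receptor ApoER2, held 32 ST18 reads against 4 input reads. Vldlr, which encodes the very low density lipoprotein receptor, held 19 ST18 reads against 10 input reads. Lrp8 therefore had both the most ST18 reads of the 10 and few input reads, while Vldlr had about the median of ST18 reads and more input than most windows.

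The relative enrichment of Lrp8 was 2.92-fold (interval 1.04 to 11.4) at a log2 value of 0.53, and 1.80% of all windows were higher. It did not pass adjustment over the table (exact binomial test, unadjusted p = 0.0404, adjusted p = 0.833). That of Vldlr was 0.694-fold (0.307 to 1.67) at a log2 value of −0.13, and 79.0% of all windows were higher. The ratio at Lrp8 over that at Vldlr was 4.21, with an exact conditional 95% interval of 1.01 to 20.6 around a conditional estimate of 4.11. This pair was set side by side for the genes' shared role, with the Lrp8 value already known, so the interval is a description. The adjoining windows did not share the Lrp8 value: Dmrtb1 stood at −0.13 (19 against 10 reads) and Magoh at −0.13 (26 against 13 reads). Beside Vldlr, Gm815 stood at −0.23 (13 against 9 reads) and Kcnv2 at −0.10 (18 against 9 reads).

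The promoters of this receptor pair are shown because the pair spans the largest gap among related members. Sequences are RefSeq's, of the build GRCm38.p6, from 250 bases before a transcription start to 50 after it, 5′ to 3′, for the first listed of 3 Lrp8 starts (chr4:107802635-107802934, plus strand) and of 2 Vldlr starts (chr19:27216234-27216533, plus strand). The read counts were made on mm9, and where the counted window lies around the start is not given in the sources used here. Capitals mark AAGTT on either strand, the core of the AAAGTTT motif that MYT1 family zinc fingers are known to bind.
Lrp8: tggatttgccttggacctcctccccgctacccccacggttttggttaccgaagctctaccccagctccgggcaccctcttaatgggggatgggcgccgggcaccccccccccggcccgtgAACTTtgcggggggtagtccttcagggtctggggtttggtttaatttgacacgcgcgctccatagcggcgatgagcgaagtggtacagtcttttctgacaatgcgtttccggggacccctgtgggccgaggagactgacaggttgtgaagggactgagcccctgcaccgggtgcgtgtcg
Vldlr: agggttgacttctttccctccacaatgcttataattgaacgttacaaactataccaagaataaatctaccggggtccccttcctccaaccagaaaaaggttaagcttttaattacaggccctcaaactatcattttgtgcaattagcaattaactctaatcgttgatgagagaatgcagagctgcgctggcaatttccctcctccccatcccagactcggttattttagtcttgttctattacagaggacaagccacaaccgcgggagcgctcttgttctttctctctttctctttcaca

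The Lrp8 sequence had the core on its reverse strand, beginning 130 bases before the start, and the Vldlr sequence had none. Its GC content was 62.7%, against 43.0% for the Vldlr sequence. The second Vldlr start had a GC content of 68% and no core either, and the other 2 Lrp8 starts, at 55.0% and 54.0%, also had none.

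The adaptor gene sat at the common ratio. The Dab1 window held 20 ST18 and 8 input reads, for a log2 value of 0.01 and a relative enrichment of 0.914-fold (0.386 to 2.40). The same pair of counts was found in 116 other windows. The adjoining windows were both above it, Oma1 at log2 0.44 (31 against 5 reads) and C8b at 0.47 (29 against 4 reads), and neither passed the exact test over all windows (exact binomial test, adjusted p = 0.967 and 0.888).

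**Figure D2:**
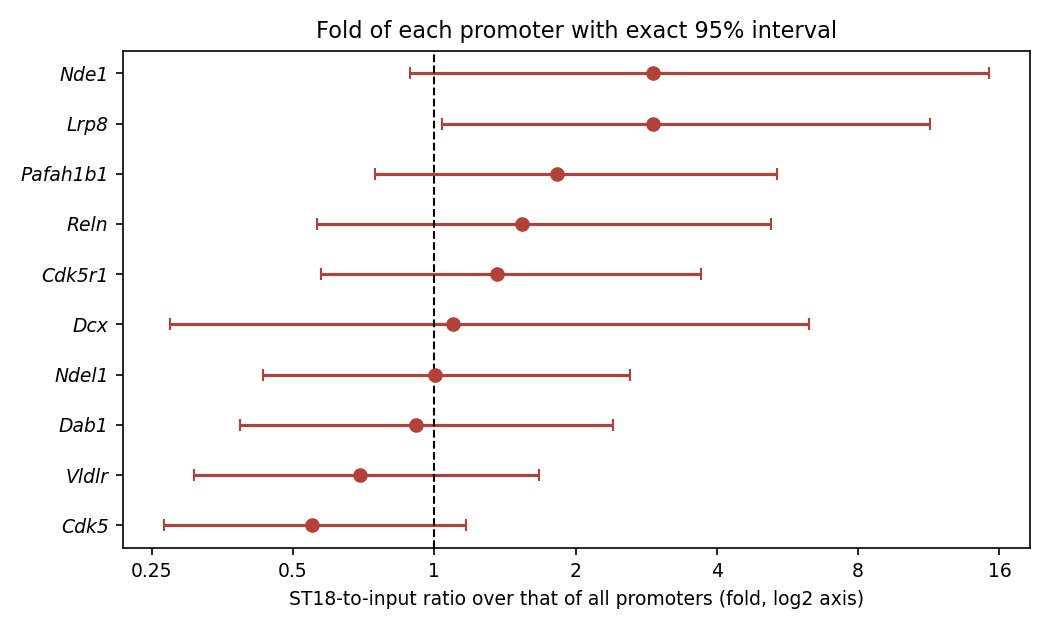
Relative enrichment of each promoter (points, log2 axis) with its exact 95% binomial interval (bars), sorted by fold. The interval of Lrp8 (1.04 to 11.4) lies above 1, the other 9 include 1, and those of Cdk5 and Vldlr end below 2.

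Cdk5, the kinase gene, had the lowest value of the 10. It held 21 ST18 and 14 input reads, for a log2 value of −0.29 and a relative enrichment of 0.548-fold (0.266 to 1.17), and 5.86% of all windows were lower. Its ST18 reads were at the table median plus 1. Its input reads were the outlying part, since only 2.82% of all windows had more. The exact test over all windows did not call it (exact binomial test, adjusted p = 0.967).

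Of the windows around Cdk5, those of Abcb8 and Slc4a2 also had low log2 values, and that of Accn3 did not. Abcb8 held 14 ST18 reads against 14 input reads (log2 −0.47), and Slc4a2, the next gene beyond the other end of Cdk5 in the RefSeq order, held 19 against 13 reads (−0.29). Accn3, which lies within the RefSeq span of Cdk5 and follows it in the gene order, held 25 against 9 reads (0.06). Slc4a2 was added beyond that order for Cdk5 only, so a low value on both sides rests on this added window. Windows of genes with nearby starts can share reads, and how far these overlap was not tested. The windows of Cdk5, Abcb8 and Slc4a2 may therefore not be independent of each other.

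Cdk5r1, which encodes the Cdk5 activator p35, held 26 ST18 reads against 7 input reads. Its log2 value was 0.21 and its relative enrichment 1.36-fold (0.574 to 3.70). The Cdk5r1 ratio over the Cdk5 ratio was 2.48, with a conditional estimate of 2.44 and an interval of 0.755 to 8.56 that includes 1, so a difference between kinase and activator was not detectable at this depth. Beside Cdk5r1, Psmd11 stood at 0.01 (20 against 8 reads) and Myo1d at −0.20 (12 against 8 reads).

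The 3 dynein-linked genes all had values above the median of all windows, Ndel1 by only 0.013. Together they held 76 ST18 reads against 17 input reads, a relative enrichment of 1.63-fold (0.957 to 2.95). Reln, Vldlr, Lrp8 and Dab1 together held 92 against 27 reads (1.25-fold, 0.803 to 1.99). These intervals pool reads over genes and leave out the spread between them, and a difference between the groups was not tested. Nde1, which encodes a scaffold that links LIS1 to dynein, held 24 ST18 reads against 3 input reads. Its relative enrichment equalled that of Lrp8 at 2.92-fold (0.888 to 15.2), at a log2 value of 0.44, and 4.21% of all windows were higher. Its ST18 reads exceeded those of 65.6% of all windows, while 85.5% of all windows had more input reads, so the value rests mainly on a low input count. It was not called (exact binomial test, adjusted p = 0.93).

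Ndel1, the paralog of Nde1, held 22 ST18 and 8 input reads, for a log2 value of 0.05 and a relative enrichment of 1.01-fold (0.431 to 2.61). ST18 reads of the 2 paralogs differed by 2, and the difference in their ratios lay in the input. The Nde1 ratio over the Ndel1 ratio was 2.91, with a conditional estimate of 2.86 and an interval of 0.589 to 18.8 that includes 1. Beside Nde1, the windows of Mir484 and Myh11 stood at 0.08 (18 against 6 reads) and 0.04 (19 against 7 reads). Beside Ndel1, Myh10 stood at −0.29 (21 against 14 reads) and Rnf222 at 0.00 (22 against 9 reads).

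Pafah1b1, which encodes LIS1 and is mutated in a human form of lissencephaly, held 30 ST18 reads against 6 input reads. This was the second highest number of ST18 reads among the 10, and 11.5% of all windows had more. The log2 value was 0.36 and the relative enrichment 1.83-fold (0.748 to 5.37), with 8.44% of all windows higher. The adjoining windows, 1300001I01Rik at 0.02 (28 against 11 reads) and Mett10d at 0.12 (25 against 8 reads), were lower in log2 value.

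The promoters of Nde1 (chr16:14163025-14163324, plus strand) and Pafah1b1 (chr11:74723809-74724108, minus strand) are shown because they carried the next highest log2 values after Lrp8, from the same build and with the same marks. Each has 1 listed start.
Nde1: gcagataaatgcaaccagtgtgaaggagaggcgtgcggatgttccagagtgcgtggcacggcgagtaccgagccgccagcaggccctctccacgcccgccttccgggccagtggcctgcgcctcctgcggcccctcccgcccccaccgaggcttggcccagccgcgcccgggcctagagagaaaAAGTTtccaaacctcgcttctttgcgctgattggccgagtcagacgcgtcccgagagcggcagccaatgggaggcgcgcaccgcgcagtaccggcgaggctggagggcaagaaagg
Pafah1b1: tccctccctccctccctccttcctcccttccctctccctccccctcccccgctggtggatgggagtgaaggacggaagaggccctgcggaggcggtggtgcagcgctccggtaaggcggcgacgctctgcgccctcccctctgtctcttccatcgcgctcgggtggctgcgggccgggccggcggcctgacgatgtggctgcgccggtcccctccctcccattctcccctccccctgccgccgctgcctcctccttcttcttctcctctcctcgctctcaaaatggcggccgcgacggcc

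Nde1 held the core 66 bases before its start, inside a full AAAGTTT. Pafah1b1 held neither. Of the 13 promoter sequences listed for 8 of the 10 genes, 2 held AAGTT on either strand, against 39.3% of all 32851 promoters, and 1 held AAAGTTT, against 4.74%. Every full motif also contains the core. The 2 with the core were those of Lrp8 and Nde1, the 2 members with the highest ratio, which was noticed after the values were seen. A match of letters is a description and says nothing of whether ST18 was bound there, and the window counted can hold bases outside these sequences.

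GC content differed widely among the members. Reln, whose log2 value was below those of Lrp8, Nde1 and Pafah1b1, had the highest, 80.7%, with 47 CpG dinucleotides in its 300 bases, above 99.2% of all listed promoters, whose median was 52.7% with 7 CpG. Pafah1b1 followed among the single-start genes at 71.3%, Nde1 at 67.7% and Ndel1 at 64.3%. The 2 Dab1 starts had 77.3% and 57.3%. Cdk5 and Cdk5r1 were not matched to a sequence.

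Dcx, which encodes the microtubule-binding protein doublecortin, had the fewest reads. Its window held 9 ST18 and 3 input reads, for a log2 value of 0.05 and a relative enrichment of 1.10-fold (0.274 to 6.30). It is the only X-linked gene of the 10. Its 12 reads in all equalled the median of 953 windows on chromosome X, while the median of 20694 autosomal windows was 28. The X-linked windows had a median of 8 ST18 reads and 3 input reads, and their summed ST18-to-input ratio was 2.64, close to the 2.74 of the autosomes, so both columns were low on X. The adjoining windows of Capn6 (10 against 3 reads, 0.08) and Mir680-2 (17 against 2 reads, 0.35) were as shallow in input.

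The Dcx promoter (chrX:143933170-143933469, minus strand, the first listed of 2 overlapping starts) is shown because it shares with the first Vldlr start the lowest GC content of the member sequences, 43.0%, and has 3 CpG dinucleotides. It holds no AAGTT.
Dcx: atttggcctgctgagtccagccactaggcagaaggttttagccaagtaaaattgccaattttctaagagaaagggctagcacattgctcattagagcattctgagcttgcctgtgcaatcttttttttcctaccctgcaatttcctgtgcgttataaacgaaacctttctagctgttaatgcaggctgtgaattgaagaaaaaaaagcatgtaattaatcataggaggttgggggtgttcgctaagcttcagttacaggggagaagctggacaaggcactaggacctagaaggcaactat

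**Figure D3:**
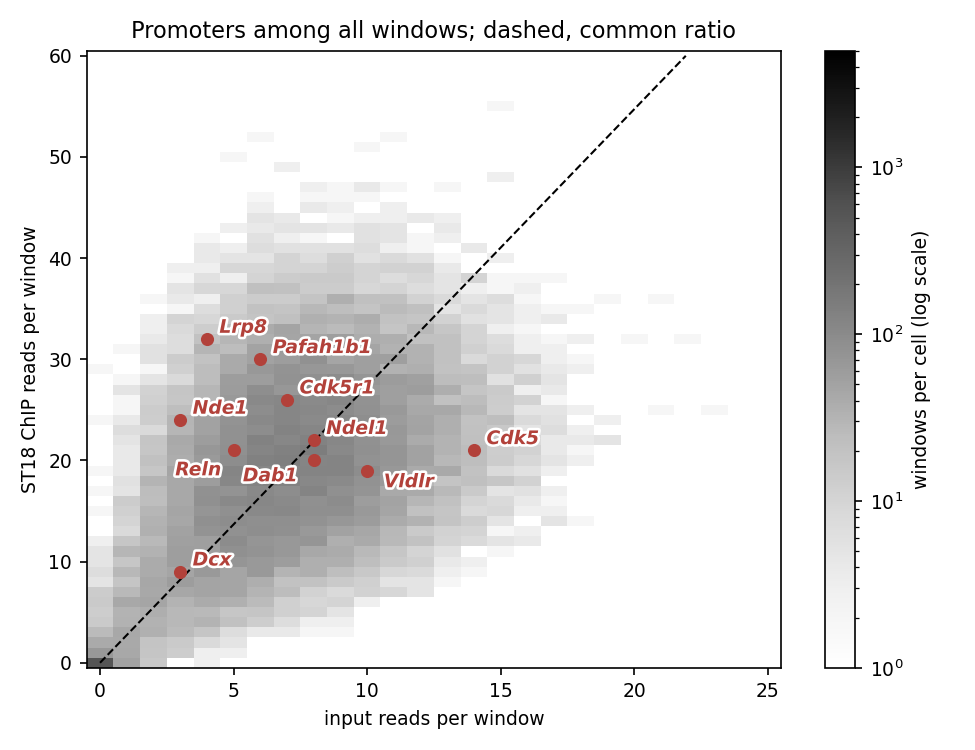
ST18 ChIP reads (vertical axis) against input reads (horizontal axis) of all promoter windows within the axes (grey, number of windows on a log scale) and of the 10 genes (red points). The dashed line marks 2.74 ST18 reads per input read, the value over the whole table. Lrp8 and Nde1 lie farthest above the line at low input, and Cdk5 lies below it at 14 input reads.

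By ratio the members ran from Lrp8 and Nde1 (2.92-fold each) through Pafah1b1, Reln, Cdk5r1, Dcx, Ndel1 and Dab1 to Vldlr and Cdk5. For none of the 9 pairs next to each other in that order did the interval of the ratio between them exclude 1. Over all 45 pairs it did so for 3, without adjustment for their number: Lrp8 over Cdk5 (5.33, interval 1.39 to 24.7), Nde1 over Cdk5 (5.33, 1.21 to 32.1) and Lrp8 over Vldlr. These 3 pairs set the highest ratios against the lowest in an order ranked on the same counts. With intervals that are not adjusted, the order of the members is not resolved, for these pairs or for the rest.

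Depth set what could be seen. The 10 windows held between 12 and 36 reads each in both columns together, with a median of 29.5, against 28 over all windows. A window needed at least 36 reads to be called higher after adjustment even if every read were an ST18 read, and 77.7% of all windows had fewer. Of the 10, Lrp8 and Pafah1b1, with 36 reads each, reached that number, and the other 8 could not have been called higher whatever their split. A 2-fold higher ratio lay within the interval of 8 of the 10 genes. The exceptions were Cdk5 (upper bound 1.17) and Vldlr (upper bound 1.67).

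Other genes of the same pathways, 68 in 7 lists grouped by role, had values close to those of promoters in general. A window was found for 67, of which 66 had reads, since Map1b had no row and Dynlt1c, a dynein light chain, had 0 reads in both columns. Their median log2 value was 0.08, and 37 of 66 were above the median of all windows. Of these, 1 of 66 reached 0.58, against 1.15% of all windows, and none reached −0.58, against 0.219%. That window, Dynlrb1, passed narrowly: it stood at 0.65 as deposited but at 0.58 with the column scaled to the promoter totals, by TMM or by median ratio, and it fell just short of the threshold in the first and the last of these. The exact test over all windows called 0 of the 66, against 0.0375% of all windows called higher and 0.00936% called lower. List windows with fewer than 36 reads could not have been called higher whatever their split, so the lack of calls says little about them. At an unadjusted p under 0.05, 2 of the 66 were higher, Ccni and Dynlrb1, against 2.43% of all windows, and 1 was lower, Dixdc1, against 3.32%, shares near those of promoters in general.

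Among genes for Reelin processing and other receptors (median 0.03 over 9), Lrp1, a large lipoprotein receptor, was highest at 0.35 (33 against 7 reads), and Ephb2, an ephrin receptor, was lowest at −0.22 (22 against 13 reads). Among genes for signal transduction from the receptors (median 0.09 over 13), the kinase gene Akt1 was highest at 0.44 (31 against 5 reads). Pik3r1, which encodes a regulatory subunit of the lipid kinase PI3K, was lowest at −0.32 (12 against 10 reads). None of these 22 windows had an unadjusted p under 0.05.

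The list of Cdk5 activators and substrates (median 0.05 over 8) held the widest range. Ccni, which encodes cyclin I, stood at 0.57 (30 against 3 reads), a relative enrichment of 3.66-fold (1.14 to 18.7). Dixdc1, which encodes a protein of the Wnt and DISC1 pathways, stood at −0.49 (15 against 15 reads), 0.366-fold (0.167 to 0.802). Neither passed adjustment (exact binomial test, adjusted p = 0.739 for Ccni and 0.620 for Dixdc1). The Ccni window held fewer than the 36 reads needed to be called higher, so it could not have passed.

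Cytoplasmic dynein genes had a median of 0.12 over 9 windows. Dynlrb1, a roadblock-type light chain of the motor, was highest at 0.65 (38 against 4 reads), 3.47-fold (1.25 to 13.4; exact binomial test, adjusted p = 0.620), and Dync1i2, an intermediate chain, was lowest at −0.32 (10 against 9 reads). The genes of dynactin, the dynein cofactor, had a median of 0.14 over 9, from Dctn3 at 0.41 (36 against 7 reads) to Actr1a at −0.34 (15 against 12 reads). Partners of LIS1 and NDE1 had a median of 0.03 over 10. Ywhae, which encodes the 14-3-3 epsilon protein, was highest at 0.25 (25 against 6 reads), and Nudcd3 was lowest at −0.27 (26 against 16 reads). The doublecortin family and nuclear envelope linkers had a median of 0.18 over 8, from the inner nuclear membrane gene Sun1 at 0.35 (39 against 9 reads) to its relative Sun2 at −0.07 (24 against 11 reads).

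**Figure D4:**
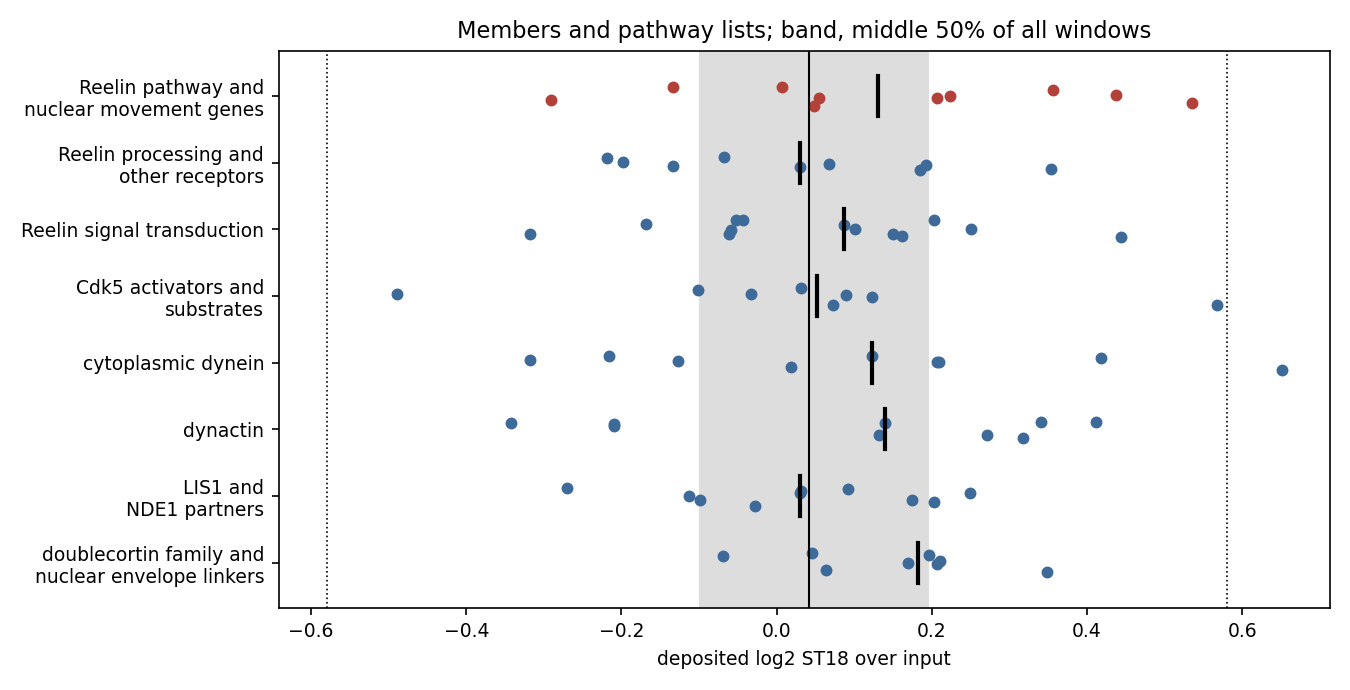
Deposited log2 ST18 over input of the 10 genes (red) and of the windows with reads in the 7 pathway lists (blue), 1 point per promoter with a small vertical offset, and a black bar for each median. The grey band is the interquartile range of all windows (−0.10 to 0.19), the solid line their median (0.04), and dotted lines mark 0.58 in either direction, which only Dynlrb1 at 0.65 passed.

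The size of the log2 values depended on the pseudocount, while Lrp8 stayed highest and Cdk5 lowest of the 10 under each of the 3 other scalings and both other pseudocounts. These settings apply a common factor or pseudocount to the same counts, which left little room for the order to change. Among windows with more than 5 input reads, which leave out Lrp8, Pafah1b1 was highest of 6 members at 0.36 and Cdk5 lowest. With a pseudocount of 1 in place of 16, Lrp8 stood at 1.48, Nde1 at 1.42, Pafah1b1 at 0.91 and Reln at 0.67, all at or above 0.58, and Cdk5 at −0.66. In the same setting 24.1% of all windows were at least that high and 13.1% at least that low, the shares against which the 4 and the 1 of 10 members stand. The sign of the Dab1 value, 0.01 as deposited, turned negative when the ST18 column was scaled to the promoter totals or by the TMM or median-ratio methods. No other member's sign was reversed, though the Ndel1 value, 0.05 as deposited, came to 0.00 by median ratio.

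**Figure D5:**
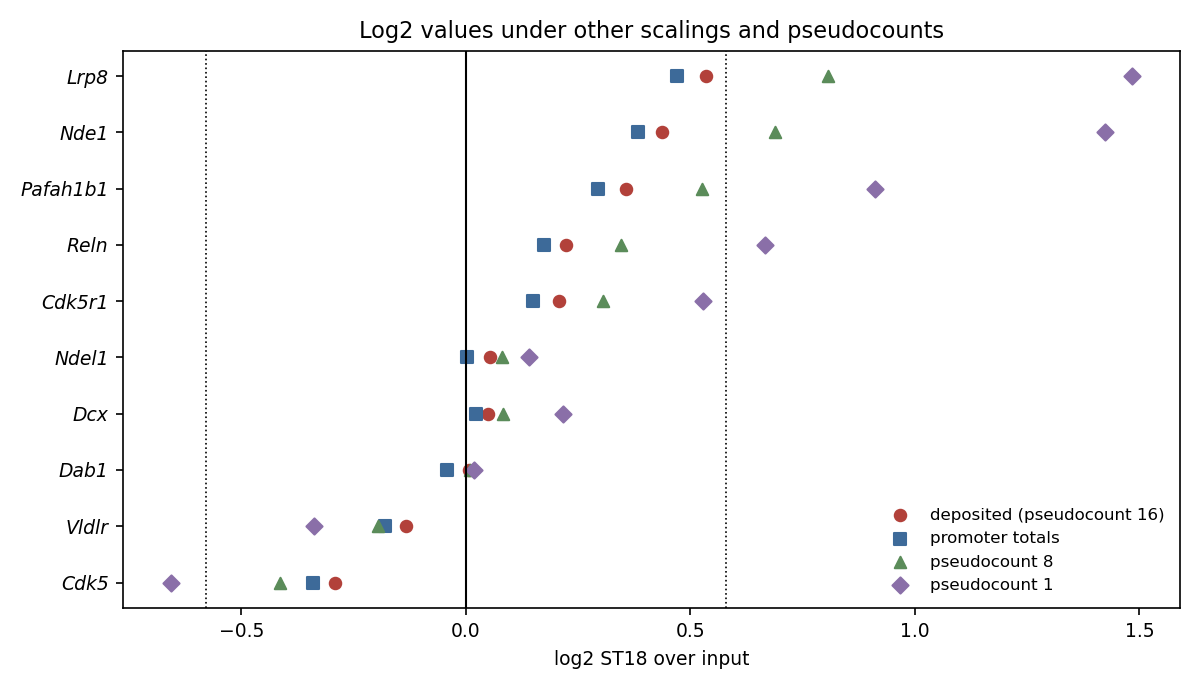
Log2 ST18 over input of each gene as deposited (red circles), scaled to the promoter totals (blue squares), and with a pseudocount of 8 (green triangles) or 1 (purple diamonds). Lrp8 is highest and Cdk5 lowest in each of the 4, and dotted lines mark 0.58 in either direction.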

How the data were processed

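The values are read counts per 1000 bp promoter window, deposited by the authors as whole numbers, with mm9 as the only build that the submitters' processing notes name. The notes name Bowtie, without a version, and MACS2 2.0.10.20120913 among their tools. The deposited log2 enrichment was recomputed from both counts: ST18 counts were multiplied by 0.406, 16 was added to each side, and the log2 of the quotient gave the deposited value within 4.44e-15. The width column, deposited by the authors, held 1000 in every row. The deposited peak list, in mm9 coordinates, was not used, since the reference gene table is of GRCm38.p6.

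The ratio of ST18 to input reads was divided by that over the table, 2.74 (the relative enrichment), with Clopper-Pearson 95% intervals. The exact test took the smaller binomial tail times 2 and was checked on simulated data. There the changed windows were given more reads than they held in the table, and a larger fold than any member showed. That check does not lift the limit of depth given above, under which 8 of the 10 windows could not have been called higher. PCR copies could not be told from separate molecules, so intervals cover counting error only. Ratios between members are odds ratios with exact conditional intervals. Scaling used edgeR 4.0.16 and DESeq2 1.42.0. Other values used SciPy 1.17.1. Of each list, the highest and lowest member and those past the unadjusted threshold were named, as was each neighbouring window in RefSeq gene order. For Cdk5 alone a further window, that of Slc4a2, was added. The members, lists and tests were chosen with earlier results of these data known. The planned limma test needed 1 column per ChIP library and was not run.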

Additional observations from a re-analysis of the deposited data

How the results depend on the processing

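None of the 10 promoters was called by the exact test under any of 6 choices of ratio or filter (lowest adjusted p from 0.684 to 1.0), and Lrp8 was past the unadjusted threshold in the 5 that keep its window (p from 0.0208 to 0.0416). The filter on input leaves out Lrp8, Nde1, Reln and Dcx, which have 5 or fewer input reads. The median of the members was 0.13 as deposited, 0.08 to 0.09 under the 3 other scalings, where the median of all windows was 0.00, 0.19 and 0.37 with pseudocounts of 8 and 1, and 0.03 over 6 windows with more than 5 input reads. The members at 0.58 or more numbered 0 as deposited, 2 with a pseudocount of 8 (Lrp8 and Nde1) and 4 with 1, and those at −0.58 or less numbered 0 and, with a pseudocount of 1, 1 (Cdk5). In the same settings 1.15%, 6.98% and 24.1% of all windows were at 0.58 or more. At −0.58 or less were 0.219%, 2.6% and 13.1%. Over all windows, the 252 at 0.58 or more became 133 when scaled to the promoter totals, 139 by TMM, 123 by median ratio, 1527 and 5272 with pseudocounts of 8 and 1, and 50 with the input filter. The 48 at −0.58 or less became 76, 76, 78, 568 and 2872 under the first 5 of these. A smaller pseudocount widens every log2 value by construction.

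The correction for GC content was void, since 75.4% of windows matched a promoter sequence and 80% were needed. Leaving out each ChIP replicate and setting peaks against promoters were planned and could not be done with these columns and this build. No paired analysis was possible because there is a single ST18 column, and which ChIP library it holds, or whether it holds both, is not stated. RNA values were not used here.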

Other observations

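Pafah1b1 and Ywhae bound a stretch of mouse chromosome 11 whose human counterpart is deleted in Miller-Dieker syndrome, in which neuronal migration fails. The stretch was looked at after the values around Pafah1b1 had been seen. Its median and counts include the windows of Pafah1b1 (0.36) and its neighbour Mett10d (0.12), which were among those values. In the RefSeq gene order it holds 31 genes with a window, all with reads, and their median log2 ST18 over input was 0.11, against 0.04 over all windows. Of the 31, 20 were above the median of all windows, where 49.6% of all windows were. As deposited, 2 reached 0.58, against 1.15% of all windows, and none was at −0.58 or lower, against 0.219%. The count of 2 became 0 with the ST18 column scaled to the promoter totals, by TMM or by median ratio, which was tried after seeing the data. Srr, the serine racemase that makes D-serine, stood at 0.60 as deposited (39 ST18 reads against 5 input reads) and at 0.53 when scaled to the promoter totals. Hic1, a zinc finger repressor, stood at 0.58 as deposited (27 against 2 reads) and at 0.52 when so scaled. The exact binomial test over all windows called 0 of the 31 (adjusted p = 0.739 for Srr and 0.676 for Hic1), against 0.0375% of all windows called higher and 0.00936% called lower. Windows with fewer than 36 reads, that of Hic1 among them, could not have been called higher whatever their split. At an unadjusted p under 0.05, 2 of the 31 were higher, against 2.43% of all windows, and 0 were lower, against 3.32%. Crk, the adaptor that binds phosphorylated Dab1, lies in the same stretch and stood at −0.05 (20 against 9 reads). Neighbouring windows can share reads, so these 31 values are not independent.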
